A study of Homo sapiens with 4 samples.

Results

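The clustered protocadherin genes of human chromosome 5 were examined in H3.3 ChIP-seq of MRC5_VA cells, a fetal lung fibroblast line immortalized with SV40 (the sample labels give MRC5 and, in the titles, MRC5_WT for both conditions). The members were the protein-coding GENCODE genes of chromosome 5 whose symbol is PCDHA, PCDHB or PCDHG followed by a number, or by A, B or C and a number. This rule gave 53 of 20033 protein-coding genes, of which 15 were alpha, 16 beta and 22 gamma genes. The H3.3 libraries came from untreated cells and from cells harvested 3 h after 10 J/m2 of UV-C. For each condition the chromatin DNA of the replicates was pooled and 1 library was sequenced, so no difference between conditions has a replicate check and no test was made. Each member was classed by whether an H3.3 interval, a stretch of the genome that the authors called as enriched, lay within 1 kb of the gene's own 5′ end or anywhere in the gene. "Without UV" and "after UV" name the 2 lists.

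Clustered protocadherins are cell-surface adhesion proteins of the cadherin superfamily, best known in neurons, where each cell expresses its own combination and so carries a distinct surface identity. Each alpha and gamma gene has its own promoter and a large variable first exon, which is spliced to constant exons at the 3′ end that all genes of the cluster share, whereas a beta gene is essentially a single exon. Promoter choice in these clusters is known to involve DNA methylation, CTCF and cohesin, and most of the promoters carry a conserved element with the letters CGCT at its core. H3.3 is the histone variant placed in chromatin independently of DNA replication, by HIRA among others, and it is known for active promoters, enhancers and gene bodies, and for silent heterochromatin through another chaperone.

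The promoters themselves are shown first, because the main result concerns the absence of listed intervals at them. The sequences are the 100 bases just before the 5′ end in hg38 (GRCh38), all on the plus strand and all outside annotated UTRs. For each cluster they are the first 3 genes in chromosome order that hold, in these bases, the 8-letter word with CGCT most common among that cluster's promoters, which is written in capitals.
PCDHA1, chr5:140786036-140786135: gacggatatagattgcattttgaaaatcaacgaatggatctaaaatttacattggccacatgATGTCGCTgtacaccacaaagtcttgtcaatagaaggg
PCDHA2, chr5:140794752-140794851: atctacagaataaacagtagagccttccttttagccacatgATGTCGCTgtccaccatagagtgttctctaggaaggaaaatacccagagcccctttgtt
PCDHA3, chr5:140800928-140801027: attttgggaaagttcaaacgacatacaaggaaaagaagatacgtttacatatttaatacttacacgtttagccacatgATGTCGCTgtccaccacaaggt
PCDHB2, chr5:141094506-141094605: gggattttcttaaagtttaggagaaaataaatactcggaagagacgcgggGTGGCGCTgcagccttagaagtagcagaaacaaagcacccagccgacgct
PCDHB3, chr5:141100373-141100472: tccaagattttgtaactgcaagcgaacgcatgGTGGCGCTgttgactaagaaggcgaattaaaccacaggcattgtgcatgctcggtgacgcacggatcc
PCDHB4, chr5:141121718-141121817: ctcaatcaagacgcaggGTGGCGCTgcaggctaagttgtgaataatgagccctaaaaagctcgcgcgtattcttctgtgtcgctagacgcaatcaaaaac
PCDHGA1, chr5:141330414-141330513: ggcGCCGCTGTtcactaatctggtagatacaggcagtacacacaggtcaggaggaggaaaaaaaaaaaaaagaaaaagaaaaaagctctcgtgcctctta
PCDHGB1, chr5:141349999-141350098: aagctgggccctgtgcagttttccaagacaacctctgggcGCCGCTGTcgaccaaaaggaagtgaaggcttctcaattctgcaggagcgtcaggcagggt
PCDHGA7, chr5:141382639-141382738: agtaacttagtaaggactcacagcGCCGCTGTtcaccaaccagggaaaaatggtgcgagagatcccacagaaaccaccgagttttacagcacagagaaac
The word of the alpha genes was ATGTCGCT, which 10 of 15 alpha genes held between 250 bases before and 50 bases after the 5′ end, with a median start 46 bases before it. The word of the beta genes was GTGGCGCT in 14 of 16, with a median start 57 bases before the 5′ end, and that of the gamma genes was GCCGCTGT in 11 of 22, with a median start 60 bases before it. None of the 3 words occurred in the same window of a member of another cluster. They were found on the gene strand in 0.205%, 0.784% and 0.953% of all protein-coding genes, members included. The words were chosen for being common in these promoters, so their counts are a description. Each word contains the core letters CGCT, so the searches overlap.

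The letters CGCT alone were on the gene strand in 51 of 53 members (96.2%) and in 60.4% of all protein-coding genes, and in the 100 bases just before the 5′ end in 46 of 53 (86.8%) and 32.2%. On either strand the shares were 96.2% and 77.2%. PCDHA11 and PCDHGC5 lacked them in the window searched. The letters CCCTC, searched on both strands because they give CTCF its name, were in 16 of 53 members (30.2%) and in 74.1% of all protein-coding genes, with 3 of 15 alpha, 2 of 16 beta and 11 of 22 gamma genes. A match to these letters is not a binding site, and a promoter without a match may still hold one. The 2 kb around the members' 5′ ends was also poorer in GC, with a median of 42.8% against 55.0% over all protein-coding genes. The part of this in the shares was not tested. Members that lack their cluster's word are shown for contrast. They are PCDHAC2, whose position is the last of the alpha cluster, PCDHB1, the first beta gene, and PCDHGC5, the last gamma gene.
PCDHAC2, chr5:140966370-140966469: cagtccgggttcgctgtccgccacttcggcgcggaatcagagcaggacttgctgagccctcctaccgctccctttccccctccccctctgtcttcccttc
PCDHB1, chr5:141051274-141051373: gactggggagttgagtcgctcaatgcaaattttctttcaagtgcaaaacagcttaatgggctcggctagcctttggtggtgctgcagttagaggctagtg
PCDHGC5, chr5:141488981-141489080: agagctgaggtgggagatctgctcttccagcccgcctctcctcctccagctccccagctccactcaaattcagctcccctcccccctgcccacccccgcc

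No clustered protocadherin gene had an H3.3 interval within 1 kb of its 5′ end, without UV or after UV. The count was 0 of 15 alpha, 0 of 16 beta and 0 of 22 gamma genes in each list. Over all protein-coding genes, 37.0% had such an interval without UV (7421 genes) and 44.8% after UV (8968 genes). The exact Clopper-Pearson 95% interval of 0 of 53 reached up to 6.72%, and those of the alpha, beta and gamma genes up to 21.8%, 20.6% and 15.4%. These intervals treat genes as independent, which neighbouring genes of 1 locus are not. The lists hold peaks with a q of 0.05 or lower, so a gene without a listed interval may still carry H3.3 below that limit. With no 5′ end interval in either list, 0 members had one in the UV list only, against 10.4% of all protein-coding genes, and 0 had one in the list without UV only, against 2.71%.

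Intervals were few over the locus as a whole, and those of the gamma cluster stood at its end. In chromosome order, the alpha cluster spans chr5:140786136-141012347 (226 kb), the beta cluster chr5:141051374-141249365 (198 kb) and the gamma cluster chr5:141330514-141512977 (182 kb). The alpha and beta spans held 0 intervals in each list. The gamma span held 3 distinct intervals in each list, all within its last 5 kb, or 1.64 per 100 kb. From PCDHA1 to the end of the gamma cluster (727 kb) there were 3 intervals without UV and 4 after UV, 0.413 and 0.55 per 100 kb. Chromosome 5 as a whole held 2.8 and 2.22 distinct intervals per 100 kb, and chromosomes 1 to 22, X and Y together 2.88 and 2.5.

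**Figure D1:**
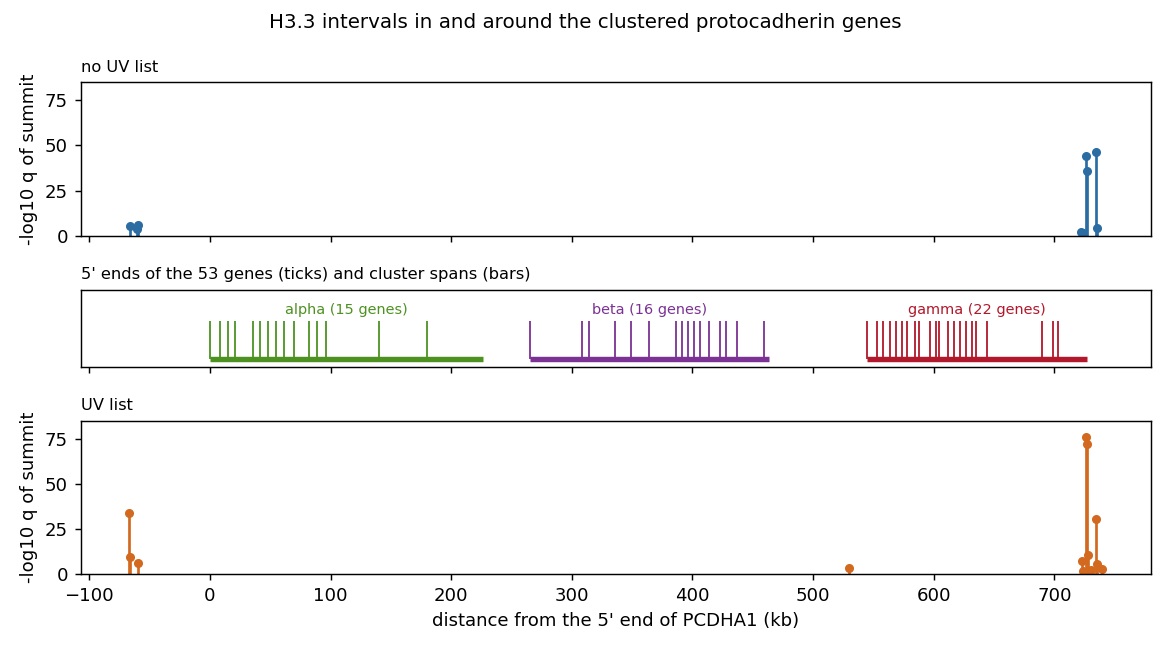
H3.3 summits in and around the 3 clusters, by distance from the 5′ end of PCDHA1 (kb) and by the authors' −log10 q, without UV (top, blue) and after UV (bottom, orange); ticks in the middle panel are the 53 5′ ends, bars the cluster spans. Summits stand at both edges of the locus, and between them only 1 is seen, after UV, just before the gamma cluster.

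Without UV, the interval-free stretch that holds the clusters ran from chr5:140727116 to chr5:141508352, a length of 781 kb. It contained 56 protein-coding 5′ ends that were more than 1 kb from an interval: those of the 53 members, of the transporter gene SLC25A2, of TAF7, which encodes a subunit of TFIID, and of a readthrough gene in the beta cluster. Of 88798 stretches between neighbouring intervals it ranked second by the number of 5′ ends. The first, on chromosome 11, was 8880 kb long and held 70 5′ ends, 63 of them of olfactory receptor genes. It was also long, with 503 of the 88798 stretches as long or longer, and these held a median of 1 protein-coding 5′ end. In that list 8 stretches held 25 or more 5′ ends.

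After UV, 1 interval divided this stretch. It lay at chr5:141315989-141316322 (334 bp), outside annotated UTRs, in TAF7, which lies between the beta and gamma clusters. The interval was enriched 4.09-fold over the local background with a −log10 q of 3.65, above 25.5% of the summits of its list. It had no counterpart without UV. The part before it was 589 kb long and held 33 5′ ends, among them all 31 alpha and beta genes, and the part after it was 192 kb long and held 23 5′ ends, among them all 22 gamma genes. Of 77159 stretches after UV, they ranked 3 and 11 by the number of 5′ ends, both ranks being shared with other stretches of the same number. With only summits of a −log10 q of at least 5, a filter that removes the TAF7 interval, the stretch after UV was undivided, with 56 5′ ends over 781 kb. The same filter gave 785 kb and 56 5′ ends without UV.

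**Figure D2:**
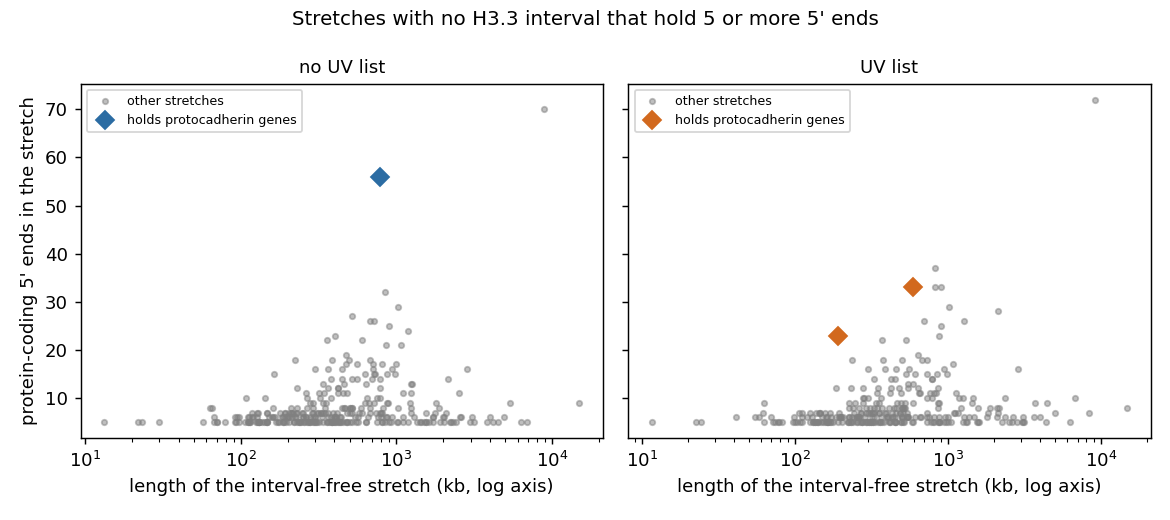
Length (kb, log axis) and number of protein-coding 5′ ends of each stretch between neighbouring H3.3 intervals that holds 5 or more 5′ ends, per list; grey points are other stretches and diamonds those with protocadherin genes. Without UV the diamond stands at 56 5′ ends and 781 kb, below 1 grey point at 70, and after UV the diamonds stand at 33 and 23.

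Distances from the 5′ ends to the nearest interval differed between the clusters mainly by position. The nearest interval of every alpha gene lay upstream of the cluster, at chr5:140726681-140727115 without UV and chr5:140726529-140727166 after UV, with a −log10 q of 5.65 and 6.08. Alpha genes were between 59.0 kb (PCDHA1) and 239 kb (PCDHAC2) from it in both lists, with a median of 114 kb. Beta genes lay farthest from any interval without UV, from 263 kb (PCDHB15) to 387 kb (PCDHB4) with a median of 325 kb. After UV the same cluster ranged from 70.6 kb (PCDHB15) to 265 kb (PCDHB1) with a median of 136 kb, the TAF7 interval then being the nearest to all 16 genes.

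Gamma genes ranged from 19.3 kb (PCDHGC5) to 178 kb (PCDHGA1) without UV and from 14.2 kb (PCDHGA1) to 95.5 kb (PCDHGA10) after UV. Their medians were 119 kb and 55.7 kb. PCDHGA1 thus went from the farthest gamma gene to the nearest because of the 1 interval in TAF7, while PCDHGC3, PCDHGC4 and PCDHGC5 at the other end of the cluster kept almost the same values, 32.4, 23.4 and 19.3 kb without UV and 32.6, 23.5 and 19.4 kb after UV. Over all 53 members the median was 144 kb without UV and 92.6 kb after UV, against 4.35 kb and 2.25 kb over all protein-coding genes. Of all protein-coding genes, 8.96% without UV and 13.5% after UV lay at least as far from an interval as the members' median.

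**Figure D3:**
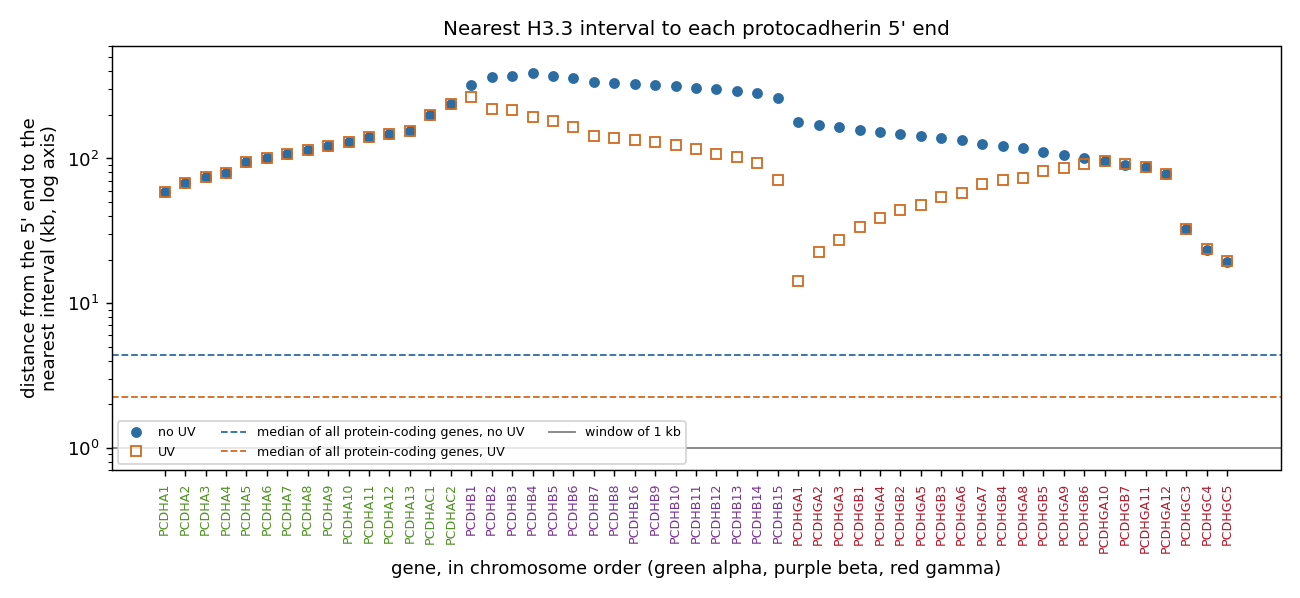
Distance from each member's 5′ end to the nearest H3.3 interval (kb, log axis), in chromosome order, without UV (blue circles) and after UV (orange squares); dashed lines are the medians of all protein-coding genes, and the grey line is the 1 kb window. Every member lies above 10 kb in both lists, the beta genes highest without UV, and the lists part between PCDHB1 and PCDHGB6.

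When intervals anywhere in the gene were counted, 22 of 53 members had one without UV and the same 22 after UV, and over all protein-coding genes the shares were 63.3% and 65.7%. These 22 were the whole gamma cluster, because all gamma genes run to the same 3′ end and share the intervals there. The 22 genes therefore stand for 1 locus and not for separate measurements. No alpha or beta gene had an interval, although the alpha genes also share a 3′ end. Within 1 kb of the gene's own 3′ end, 20.0% of all protein-coding genes had an interval without UV and 20.1% after UV, and in the clusters again 22 of 22 gamma, 0 of 15 alpha and 0 of 16 beta genes had one in each list.

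The strongest summit of the gamma genes lay in the 3′ UTR of the last constant exon (chr5:141510947-141512975), at the very end of all 22 genes. Without UV its interval was chr5:141512532-141512961 (430 bp), wholly in the UTR, with 8.25-fold enrichment and a −log10 q of 44.4 at its summit, chr5:141512732, which was above 98.7% of the summits of its list. After UV an interval of 1141 bp, chr5:141512487-141513627, of which 491 bp were in the UTR and the rest ran past the genes, covered it and had a summit 1 bp away, with 13.2-fold enrichment and a −log10 q of 76.0, above 99.1% of its list. Among all summits ordered by −log10 q these stood at rank 1364 of 102924 without UV and rank 774 of 89709 after UV. A deeper library gives larger −log10 q values, and the lists do not give the depth, so levels are not compared between the lists.

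A second summit of similar rank lay just past the genes. Without UV it was in an interval of its own, chr5:141513136-141513611 (476 bp), 375 bp after the gamma end, with 8.68-fold enrichment and a −log10 q of 36.0, above 97.7% of its list. After UV the corresponding summit, 20 bp away, belonged to the 1141 bp interval and had 13.3-fold enrichment and a −log10 q of 72.4, above 99.0% of its list. The interval after UV thus covered the ground of both intervals without UV. Farther on, an interval with a −log10 q of 10.6 was listed after UV only, at chr5:141513909-141514475. The next gene, DIAPH1, which encodes an actin-nucleating formin and is transcribed towards the gamma cluster, ends 2039 bp after the gamma end.

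The other gamma intervals lay in the last intron and had lower −log10 q values than that at the 3′ end. Without UV they were chr5:141508353-141508947 (595 bp), with 3.0-fold enrichment and a −log10 q of 2.1, and chr5:141509945-141510397 (453 bp), with 2.71 and 1.65, above 8.3% and 4.23% of the list. After UV they were chr5:141508520-141509251 (732 bp), with 5.1-fold enrichment and a −log10 q of 7.15, above 59.0% of the list, and chr5:141509387-141509680 (294 bp), with 2.74 and 1.55, above 2.28%. The first of each list overlapped by 428 bp, with summits 436 bp apart, and the second of each list had no counterpart. At a −log10 q of at least 3, or with equal numbers of peaks, 1 gamma interval was left without UV, that in the 3′ UTR. After UV 2 were left at that minimum. For equal numbers of peaks only the list without UV was cut, because the list after UV is the shorter (89709 against 102924 summits). The 3 after UV were thus fixed in advance under that setting, and only the list without UV could lose intervals.

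Counted as distinct intervals, 2 of 3 gamma intervals (66.7%) overlapped the other list in either direction. Over the whole lists, 57.3% of the intervals without UV (50865 of 88822) and 65.6% of those after UV (50637 of 77183) did so. With 3 intervals per list, this share says little about the cluster. Each list covered about the same length of the gamma span, 1478 bp without UV and 1517 bp after UV.

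**Figure D4:**
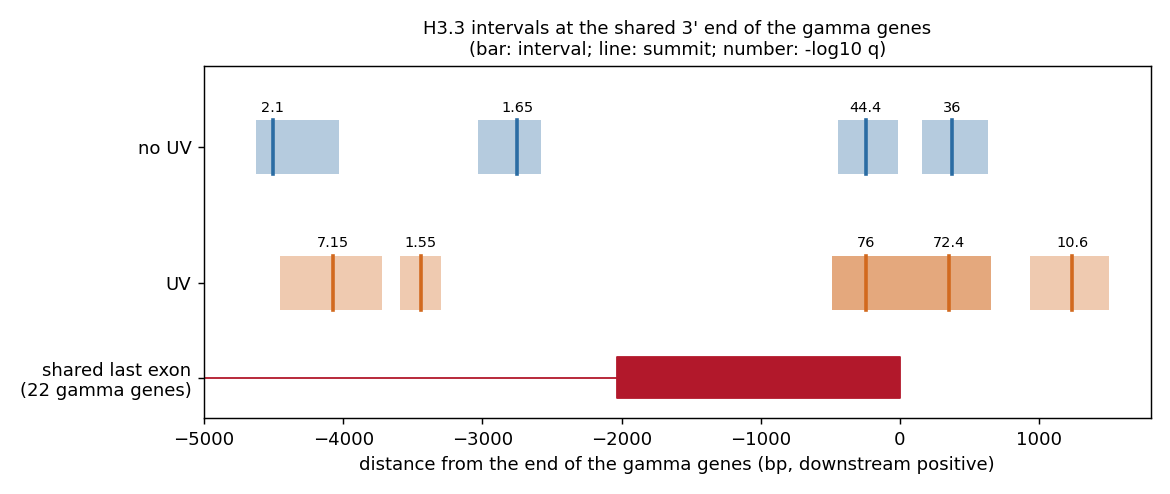
H3.3 intervals (bars) and summits (lines, with the −log10 q) over the end of the gamma genes, by distance from the end of PCDHGC3 (bp), without UV (blue) and after UV (orange), above the shared last exon of the 22 genes (red). The summits of 44.4 and 76.0 stand at nearly the same place inside the exon's end, and those of 36.0 and 72.4 just past it.

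The sequence at intervals of this 3′ end is shown for 2 summits outside the UTR. The sequences are the 300 bases around the summit just past the genes without UV and the 300 bases around the intron summit after UV, on the plus strand of hg38, with CGCT and CCCTC on either strand in capitals (on the minus strand they read AGCG and GAGGG). The strongest summit lies in a UTR and its sequence is not shown.
Past the gamma genes, without UV, chr5:141513203-141513502: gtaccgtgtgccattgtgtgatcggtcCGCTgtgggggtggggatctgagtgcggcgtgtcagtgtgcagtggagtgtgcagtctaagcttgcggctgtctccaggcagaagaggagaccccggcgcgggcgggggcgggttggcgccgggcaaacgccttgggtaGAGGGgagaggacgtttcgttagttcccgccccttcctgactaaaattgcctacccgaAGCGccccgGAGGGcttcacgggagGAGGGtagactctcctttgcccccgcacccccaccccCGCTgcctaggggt
Last gamma intron, after UV, chr5:141508757-141509056: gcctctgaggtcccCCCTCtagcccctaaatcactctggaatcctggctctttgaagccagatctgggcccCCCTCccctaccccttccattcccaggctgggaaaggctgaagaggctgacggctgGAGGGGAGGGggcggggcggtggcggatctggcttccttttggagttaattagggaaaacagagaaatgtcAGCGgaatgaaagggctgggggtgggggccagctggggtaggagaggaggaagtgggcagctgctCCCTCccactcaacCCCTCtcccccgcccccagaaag
The first window held 3 matches to CGCT and 3 to CCCTC, and the second 1 and 6. Of all 300-base summit windows, 54.8% without UV and 61.6% after UV held CGCT on either strand, and 38.9% and 44.9% held CCCTC. The GC content of the interval past the genes was 61.6%, that of the UTR interval without UV 57.0% and that of the 1141 bp interval after UV 58.1%, where the median interval of the lists had 49.2% and 50.8%. The intron intervals had 56.6% and 49.4% without UV and 59.8% and 54.4% after UV. No rule set beforehand picked the 2 windows shown, and the other windows outside the UTR held fewer matches in all. Without UV the first intron summit had 0 to CGCT and 2 to CCCTC, and the second (49.4%) had neither. After UV the second intron summit had 1 and 1, the summit just past the genes 2 and 3, and that farther on 2 and 2.

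The 5′ ends of the members were poorer in GC than most. In the 2 kb centred on the 5′ end, GC content ranged from 31.2% (PCDHA11) to 57.2% (PCDHAC2) with a median of 42.8%, against a median of 55.0% over all protein-coding genes. The medians were 41.0% for alpha, 41.8% for beta and 43.9% for gamma genes. CpG was not scarce to the same degree, since the ratio of observed to expected CpG had a median of 0.594 in the members and 0.613 over all genes. It was 0.707 in alpha, 0.438 in beta and 0.596 in gamma genes.

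Base composition moved with the presence of an interval over all genes. In 5 equal classes of all protein-coding genes by GC content, the share with a 5′ end interval went from 8.47% in the poorest to 57.3% in the richest without UV, and from 8.66% to 69.1% after UV. The poorest class held 46 of the 53 members, the next 5, and the middle class 2 (PCDHAC1 and PCDHAC2). Weighting the shares of the other genes by these numbers gave 11.9% without UV and 12.9% after UV, to be set beside the members' 0%. By classes of the CpG ratio, which held 1, 18, 16, 14 and 4 members from lowest to highest, the weighted shares were 37.9% and 46.9%. Of 8693 other protein-coding genes inside the members' range of both measures, 30.3% without UV and 36.9% after UV had a 5′ end interval. The part of base composition in the members' count was not tested.

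**Figure D5:**
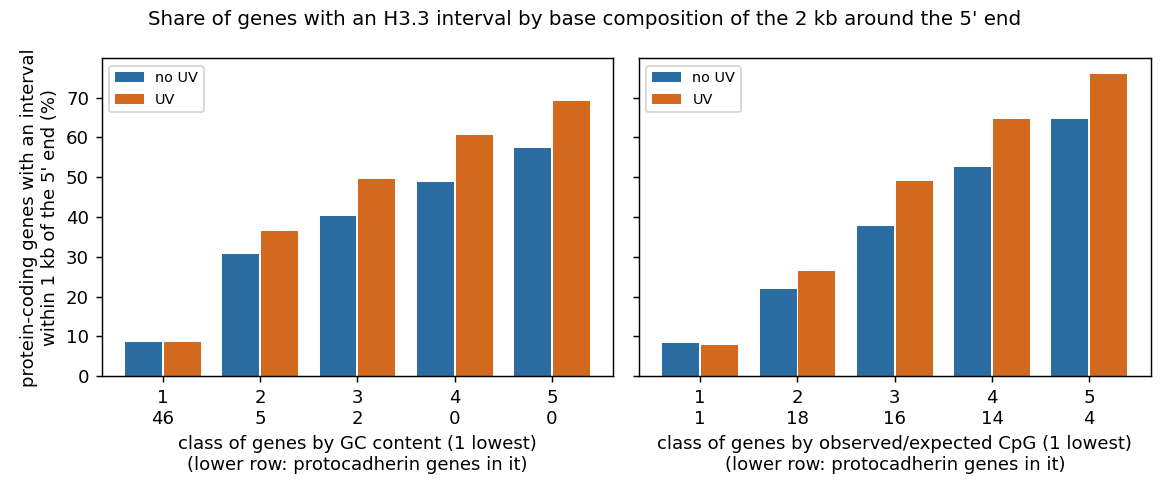
Share of protein-coding genes with an H3.3 interval within 1 kb of the 5′ end (%), in 5 equal classes of genes by GC content (left) and by observed over expected CpG (right) of the 2 kb around it, without UV (blue) and after UV (orange); the lower row under the axis is the number of protocadherin genes in each class. By GC content 46 members sit in the class with shares of 8.47% and 8.66%, whereas by CpG they spread over all 5 classes.

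Genes of a tandem array can hold near-identical stretches, to which short reads cannot be assigned. Of the 50-base words in the alpha, beta and gamma spans, 93.92%, 89.84% and 93.93% occurred once in hg38. In the 2 kb around the 5′ end, the members had a median of 99.7% such words, the lowest being 61.3% in PCDHB8 and PCDHB13, and the other protein-coding genes of chromosome 5 a median of 100%. By cluster the median was 95.1% for alpha and 100% for beta and gamma genes. Low shares were also found in PCDHA7 (74.6%) and in PCDHGB4 and PCDHGB5 (75.6% each). The study's methods give paired ChIP-seq reads longer than 50 bases, so such reads may be placed where a 50-base word is not unique. How the alignment treated reads that match several places is not given in the sources used here, so its part in the members' counts was not tested.

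Other families in clusters were compared to see how far the absence was shared. The share over all protein-coding genes was 37.0% without UV and 44.8% after UV. Of the 39 HOX genes, which pattern the body axis and lie in dense clusters, 8 (20.5%) had a 5′ end interval without UV and 11 (28.2%) after UV. Of the 249 ZNF genes of chromosome 19, which encode zinc finger proteins in tandem arrays, 48 (19.3%) and 62 (24.9%) had one. Olfactory receptor genes, which are expressed mainly in the olfactory epithelium, had one in 3 of 400 (0.75%) and 1 of 400 (0.25%). These differences from the protocadherin count of 0 were not tested, as neighbouring genes are not independent.

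Relatives of the clustered genes elsewhere in the genome were partly marked. For comparison, 37.0% of all protein-coding genes had a 5′ end interval without UV and 44.8% after UV. Of 10 unclustered protocadherins, 2 had a 5′ end interval in each list, PCDH7 (−log10 q of 14.4 without UV and 14.5 after UV) and PCDH9 (7.78 and 10.4). PCDH1, on the same arm of chromosome 5, had none and lay 29.4 kb from the nearest interval without UV and 29.3 kb after UV. Of 8 classical and related cadherins, 4 had an interval in each list, CDH2 (N-cadherin), CDH4, CDH6 and CDH13. The −log10 q was 23.1 without UV and 42.5 after UV at CDH2, and 19.6 and 29.8 at CDH13. It was 8.67 and 11.3 at CDH4, and 1.78 and 7.55 at CDH6. CDH1 (E-cadherin), CDH5, CDH8 and CDH11 had none at the 5′ end in either list, and CDH11 lay 187 kb without UV and 707 kb after UV from the nearest.

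Genes for proteins known to act on these promoters, listed together with HIRA, whose protein places H3.3, nearly all carried intervals. Of 10, all 10 had a 5′ end interval without UV and 9 after UV, against 37.0% and 44.8% of all protein-coding genes. CTCF, which binds the promoters and distant enhancers of the clusters, had a −log10 q of 44.9 without UV and 92.9 after UV. NIPBL, which loads cohesin, had 45.9 and 68.0, and HIRA 6.91 and 31.9. SMCHD1 and DNMT3B, both known for silencing or methylation of clustered protocadherin promoters, had 7.02 and 10.2 without UV and 23.7 and 24.1 after UV. SETDB1, a histone H3 lysine methyltransferase, had an interval of −log10 q 4.46 without UV and none within 1 kb after UV, when the nearest lay 1.49 kb away.

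Genes on both sides of the locus carried intervals. Of 9 neighbours, 6 had a 5′ end interval in each list, against 37.0% of all protein-coding genes without UV and 44.8% after UV. Upstream, ZMAT2 had a −log10 q of 16.5 without UV and 18.4 after UV, DND1 25.8 and 35.5, and WDR55 8.64 and 5.33. HARS1 and HARS2, histidyl-tRNA synthetase genes with a shared bidirectional promoter, had the same interval, with 16.3 and 14.3. Downstream, DIAPH1 was the only gene listed. It had 3.18 and 7.17, above 23.7% and 59.1% of the lists, at its 5′ end (chr5:141619055), which is the end far from the clusters. The neighbours without a 5′ end interval were IK, with the nearest at 2.56 and 1.84 kb, and the genes between the beta and gamma clusters, SLC25A2 (204 kb without UV and 11.9 kb after UV) and TAF7 (188 kb and 4.46 kb). A 5′ end without a listed interval is not by itself evidence of a silent gene, and expression was not examined here.

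Marker genes of the labelled cell type were marked in part. Of 8 fibroblast genes, 4 had a 5′ end interval without UV (VIM, COL1A1, COL1A2 and PDGFRB) and 6 after UV. Over all protein-coding genes the shares were 37.0% and 44.8%. FN1 (fibronectin) had a 5′ end interval after UV only, with a −log10 q of 9.22, and so did PDGFRA, with 5.32. Without UV the nearest interval lay 1.82 kb from the 5′ end of FN1, just outside the window, and 40.2 kb from that of PDGFRA. Of all protein-coding genes, 10.4% had a 5′ end interval in the UV list only. COL3A1 and THY1 had none at the 5′ end in either list. None of 5 neuronal genes had one, and of 3 epithelial genes KRT8 had one in each list. Its −log10 q was 52.7 without UV and 48.4 after UV, above the highest fibroblast gene, VIM, with 25.1 and 34.7. An interval at a 5′ end is not a measure of expression.

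The lists as a whole held 102924 summits in 88822 intervals without UV and 89709 summits in 77183 intervals after UV on chromosomes 1 to 22, X and Y. Their median −log10 q was 4.99 and 5.91, and their median width 435 and 449 bp. Neither read numbers nor the input libraries' values are in the lists, so the depth is unknown, and a difference in depth and a difference between conditions cannot be told apart where an interval is listed once only.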

How the data were processed

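H3.3 ChIP-seq was available as 1 peak list per condition; the 2 input libraries were not analysed here. Per the labels and the study's methods, the authors trimmed reads (Trimmomatic), aligned them to hg38 (BWA 0.7.12), removed duplicates and called peaks with MACS (the submitters' processing notes name 1.4.2, although q values and several summits per interval are typical of a later MACS); the control and threshold for H3.3 are not given in the sources used here. Each deposited row has an interval, a summit, a score, a fold enrichment (a linear ratio), and a −log10 p and −log10 q, which the authors computed within each library. The deposited score and −log10 p were not used.

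Intervals with several summits were counted once. Genes and exons were those of GENCODE 44 on chromosomes 1 to 22, X and Y, and the 5′ end was the first base of the gene. Overlap meant at least 1 bp. Percentiles rank a summit's −log10 q within its own list. Sequences and base composition were read from hg38. The 95% intervals of shares are exact (Clopper-Pearson) and reflect counting error alone. With 1 library per condition no test was made. The search for 5′ end intervals was tested on simulated intervals. Genes were to be named where an interval stood at a 5′ end, by its −log10 q or presence in 1 list only, and no member met this, so the members named were chosen after their values were seen, as were comparison genes beyond those in 1 list only. The members, gene lists and letters were chosen with earlier results of these data known. The HOX, ZNF and olfactory receptor families, the stretches, base composition classes, 3′ ends and unique words were added after the data were seen. Calculations used Python 3.11.15 with pandas 2.3.3, numpy 2.4.6 and scipy 1.17.1, and figures matplotlib 3.10.9.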

Additional observations from a re-analysis of the deposited data

How the results depend on the processing

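The number of members with a 5′ end interval, and with one in 1 list only, was 0 in 54 of 56 alternative counts. A 500 bp window, summits in place of intervals and equal numbers of peaks could not raise a count from 0. Neither could a −log10 q of 3 or 5 as the minimum, so these counts were fixed in advance. Only a window of 2 kb and other transcript starts could raise a count, and with 2 kb all stayed at 0. Counting any annotated transcript start instead gave 1 gamma gene in each list, PCDHGC3, through a short transcript starting at chr5:141508070, near the 3′ end. The alpha and beta clusters held 0 intervals in all 16 alternative counts, which only recount or filter the listed intervals and so could not give more. The 3 gamma intervals without UV became 1 at a −log10 q of at least 3, 1 at 5 and 1 with equal numbers of peaks. The 3 after UV became 2, 2 and 3, the last being fixed in advance because the shorter list, that after UV, was not cut. Shared gamma intervals went from 2 to 1 in each list at a −log10 q of at least 5. The 33 5′ ends of the stretch holding PCDHA1 after UV became 56 at a −log10 q of at least 5, an alternative chosen after seeing the data, because the TAF7 interval drops out. Of 90 alternative values, 82 kept to the value reported or within 1.5 times of it and 8 moved by more. Many of the 82 were counts of 0 that could not rise, and counts after UV could not change with equal numbers of peaks. Their number is therefore not a measure of stability. No paired analysis was possible because each condition has 1 library, and for the same reason no replicate could be left out. Depth is unknown, so weak intervals in 1 list only cannot be read as gain or loss.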
